A study of Mus musculus with 4 samples.

Results

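The transcripts described here encode proteins of meiotic recombination and chromosome synapsis, measured in whole testis of mice lacking Tslc1. The 10 genes were Stag3 and Rec8 of meiotic cohesin, Sycp1, Sycp2 and Sycp3 of the synaptonemal complex, Spo11, Dmc1, Psmc3ip and Msh5 of recombination, and the histone variant gene H2ax. Probe sets were taken where the platform annotation names exactly 1 gene, and 7 of the 10 genes had one, with 1 probe set each, among 8251 genes named on the array. Sycp2, Spo11 and Rec8 were not analysed here. The study used 4 Affymetrix Mouse Genome U74Av2 arrays of testis RNA, 2 of Tslc1-/- and 2 of Tslc1+/+ males. Per the labels, every male was a 16-week-old C57BL/6J animal. Tslc1, named Cadm1 in current annotation, encodes an adhesion molecule of the immunoglobulin superfamily. The labels give neither the deleted part of the gene, nor the strain of the cells it was targeted in, nor whether each array stands for an animal of its own. The p-values therefore measure the spread among these 4 arrays only, and that spread may be technical.

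In meiotic prophase, spermatocytes cut their own DNA with the SPO11 enzyme, resect the breaks and use the strand exchange protein DMC1 to find the homologous chromosome. Cohesin rings organise each chromosome along an axis, and the synaptonemal complex zips the paired axes together while crossovers mature. The histone variant H2AX is phosphorylated around the breaks, and later over the unpaired sex chromosomes, where it is needed for their silencing. In the mouse, loss of any of Sycp1, Sycp3, Dmc1, Spo11, Msh5, Stag3, Rec8, Psmc3ip or H2ax makes males infertile.

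The stretches upstream of 4 of these genes are shown as examples of a feature that the choice of genes did not use, 2 genes with each of the motifs named here. They belong to a cohesin subunit, a synaptonemal complex protein and a pair of strand exchange partners. Each is the 250 bases before the RefSeq start of the gene on its own strand (build GRCm38.p6), at chr5:138280259-138280508 (plus strand), chr3:102936101-102936350 (minus), chr15:79605110-79605359 (minus) and chr11:101095436-101095685 (minus). Capitals mark CACGTG, the E-box read by proteins such as MAX and MGA, and GCGGGA, a core of E2F sites, or its reverse complement TCCCGC.
Stag3: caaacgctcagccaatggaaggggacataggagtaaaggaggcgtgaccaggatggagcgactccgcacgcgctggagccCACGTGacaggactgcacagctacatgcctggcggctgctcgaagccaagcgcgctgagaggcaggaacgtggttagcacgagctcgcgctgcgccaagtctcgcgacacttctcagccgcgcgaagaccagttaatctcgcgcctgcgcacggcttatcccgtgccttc
Sycp1: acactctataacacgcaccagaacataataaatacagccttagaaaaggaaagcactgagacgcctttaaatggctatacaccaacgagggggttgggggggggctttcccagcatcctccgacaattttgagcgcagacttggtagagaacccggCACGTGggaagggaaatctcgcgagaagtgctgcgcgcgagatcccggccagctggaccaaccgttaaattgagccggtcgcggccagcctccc
Dmc1: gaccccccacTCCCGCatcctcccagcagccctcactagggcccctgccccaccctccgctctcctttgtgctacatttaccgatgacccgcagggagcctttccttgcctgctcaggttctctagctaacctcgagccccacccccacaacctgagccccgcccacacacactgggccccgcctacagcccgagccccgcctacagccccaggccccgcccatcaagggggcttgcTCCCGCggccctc
Psmc3ip: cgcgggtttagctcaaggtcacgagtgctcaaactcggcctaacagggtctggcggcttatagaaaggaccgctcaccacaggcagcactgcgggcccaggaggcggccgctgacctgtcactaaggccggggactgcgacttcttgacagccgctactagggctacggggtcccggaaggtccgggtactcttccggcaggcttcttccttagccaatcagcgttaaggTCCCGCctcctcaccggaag

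RefSeq gave an upstream sequence for 6 of the 7 genes, and for H2ax none was used. CACGTG stood upstream of 3 of the 6 genes, Stag3, Sycp1 and Sycp3, and GCGGGA on either strand upstream of 4, Dmc1, Psmc3ip, Msh5 and Sycp3. Each of the 6 held at least 1 of the motifs, against 21.5% of all 32851 windows of that length in the table (6.02% for CACGTG and 16.9% for GCGGGA). The E-box CACGTG reads alike on both strands and was counted once, and the 2 motifs did not overlap. MAX, MGA and E2F6 belong to a complex known to silence germ cell genes in mouse somatic cells. The motifs were chosen after the sequences had been seen, the windows are rich in G and C (55.2% for Sycp1 to 68.8% for Dmc1), and a match is no evidence of binding.

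The values are signals of the Affymetrix MAS5 algorithm on a linear scale, scaled by the authors to the same brightness on each array. Median signals were 377.7 and 364.9 on the Tslc1-/- arrays, against 361.5 and 378 on the Tslc1+/+ arrays. Across probe sets, log2 signals correlated with r = 0.941 within Tslc1-/-, 0.938 within Tslc1+/+ and between 0.93 and 0.941 across genotypes. Probe sets are not independent replicates. Changes are log2 of Tslc1-/- over Tslc1+/+ after 50 was added to each signal, so changes of dim probe sets are understated. Probe sets with a mean signal of at least 200 were tested with limma. The targeted transcript was checked first. Cadm1 had 2 tested probe sets. One read 443.5 and 444.9 in Tslc1-/- testis, against 3960 and 3925 in Tslc1+/+ testis. The other read 775.9 and 604.5 in Tslc1-/- testis, against 3450 and 4028 in Tslc1+/+ testis. Their log2 changes were -3.01 and -2.36 (limma, adjusted p = 2.31e-05 and 1.83e-04), and both carry suffixes that mark possible cross-hybridisation. Without the intensity trend in the estimate of the spread neither passed (adjusted p = 0.143 and 0.275).

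Of the 7 member probe sets 6 had a mean signal above the filter, and 1 of these changed, that of H2ax, which fell. The other 5 did not pass. Of all 7975 probe sets in the fit 86 were called at a Benjamini-Hochberg adjusted p under 0.05 (limma), which is 1.08%, with 0.84% lower and 0.238% higher in Tslc1-/-. The genotypes did not overlap on 4 of the 6 tested members, 2 lower and 2 higher, and on 40% of all tested probe sets, 18.5% lower and 21.5% higher. The median log2 change of all tested probe sets was 0.02.

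**Figure D1:**
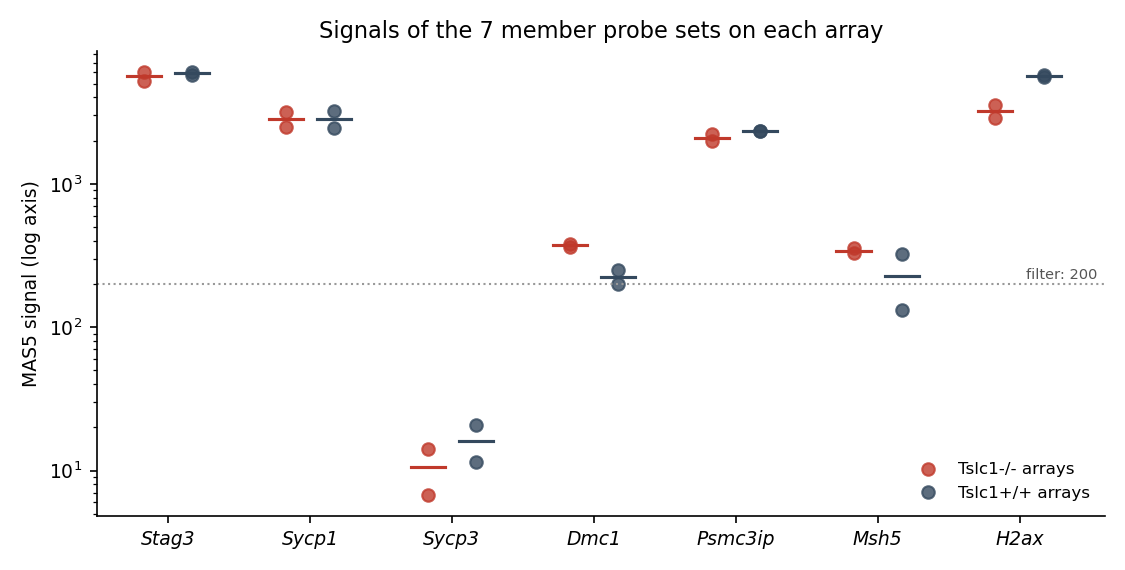
MAS5 signal (log axis) of the 7 member probe sets on each array, with Tslc1-/- (red) left of Tslc1+/+ (blue), 1 point per array and a bar at the mean of 2. H2ax lies lower on both Tslc1-/- arrays (2867 and 3570) than on both Tslc1+/+ arrays (5729 and 5597), and the Sycp3 points lie far below the filter of 200.

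Stag3 encodes the meiosis-specific STAG subunit of cohesin, which the chromosome axis needs. Its probe set read 5248 and 6030 in Tslc1-/- testis, against 6033 and 5784 in Tslc1+/+ testis. The genotypes overlapped, and the lowest value was that of Tslc1-/- replicate 1. The log2 change was -0.07 with a standard error of 0.12 and a 95% interval of -0.33 to 0.19, which spans ratios of 0.796 to 1.14 (limma, adjusted p = 0.89). This was the narrowest interval among the 6 tested members. Leaving out Tslc1-/- replicate 1 turned the change to 0.03.

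Sycp1 encodes the transverse filament protein that bridges the paired axes. Its signal was 2505 and 3176 in Tslc1-/- testis, against 3224 and 2449 in Tslc1+/+ testis. Each genotype held 1 higher and 1 lower array, the arrays of a genotype differed 1.27-fold in Tslc1-/- and 1.32-fold in Tslc1+/+, and the means were 2840 ± 474 and 2836 ± 549 (SD, n = 2). The log2 change was 0.01 with a 95% interval of -0.39 to 0.40 (limma, adjusted p = 0.996), and its sign turned under 4 alternatives, among them quantile normalization (-0.02).

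Sycp3, which encodes a main protein of the axis, could not be read. Its probe set gave signals of 6.8 and 14.2 in Tslc1-/- testis, against 11.4 and 20.9 in Tslc1+/+ testis, all far below the filter. The probe set name carries the suffix r, which marks probes picked under relaxed design rules. The genotypes overlapped, and no change of the transcript can be read from such values. With no filter its log2 change was -0.13 (limma, adjusted p = 0.933), where 0.467% of 12422 probe sets passed.

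Dmc1 encodes the meiotic recombinase that coats the resected break and invades the homologue. Its probe set was dim, at 379.1 and 364.7 in Tslc1-/- testis, against 198.7 and 249.4 in Tslc1+/+ testis. Both Tslc1-/- arrays lay above both Tslc1+/+ arrays, as on 21.5% of tested probe sets. The log2 change of 0.63 had a standard error of 0.47 and a 95% interval of -0.41 to 1.67, and it did not pass (limma, adjusted p = 0.719). At this signal the measurement allows ratios between 0.751 and 3.18. Of 2721 tested probe sets with a mean signal under 500, 2 passed, or 0.0735%.

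Psmc3ip, also called Hop2, encodes a partner of DMC1 that helps it capture the homologous strand. Its signal was 1975 and 2209 in Tslc1-/- testis, against 2334 and 2353 in Tslc1+/+ testis. Both Tslc1-/- arrays were lower, as on 18.5% of tested probe sets, and the Tslc1-/- arrays differed 1.12-fold from each other. The log2 change was -0.16 with a standard error of 0.15 and a 95% interval of -0.50 to 0.17 (limma, adjusted p = 0.785). It was -0.08 without Tslc1-/- replicate 1 and -0.24 without Tslc1-/- replicate 2. The pair Dmc1 and Psmc3ip thus had changes of opposite sign, neither of which passed, and the difference between them was not tested.

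Msh5 encodes a MutS homologue that stabilises recombination intermediates on the way to crossovers. Its dim probe set read 326.9 and 355.6 in Tslc1-/- testis, against 322.8 and 132.6 in Tslc1+/+ testis. The genotypes were kept apart by a margin far smaller than the gap between the Tslc1-/- arrays, since Tslc1+/+ replicate 1 read nearly as high as Tslc1-/- replicate 1. The log2 change was 0.58 with a 95% interval of -0.63 to 1.80 (limma, adjusted p = 0.788). It was 0.07 without Tslc1+/+ replicate 2 and 1.10 without Tslc1+/+ replicate 1.

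H2ax, the histone variant that marks DNA breaks, was the only one of the 6 tested members to pass the test, and it fell. Its signal was 2867 and 3570 in Tslc1-/- testis, against 5729 and 5597 in Tslc1+/+ testis. Both Tslc1-/- arrays lay well below both Tslc1+/+ arrays, the Tslc1-/- arrays differed 1.25-fold and the Tslc1+/+ arrays 1.02-fold. The means were 3219 ± 497 in Tslc1-/- and 5663 ± 93.7 in Tslc1+/+ (SD, n = 2), a ratio of 0.568. The log2 change was -0.81 with a standard error of 0.14 and a 95% interval of -1.12 to -0.51 (limma, adjusted p = 0.0176). It ranked 58 of the 7975 tested probe sets by p. Among the 1537 tested probe sets with a mean signal between 2000 and 10000, where calls are easier than among dim ones, 2.08% changed and 1.37% fell.

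The H2ax interval lay wholly below those of Stag3, Sycp1, Psmc3ip and Dmc1, but not below that of Msh5, and differences between genes were not tested. The H2ax call was lost when Tslc1-/- replicate 1 was left out (-0.66, limma, adjusted p = 0.146), and likewise Tslc1+/+ replicate 1 (-0.80, adjusted p = 0.143) or Tslc1+/+ replicate 2 (-0.83, adjusted p = 0.125), and with no intensity trend (adjusted p = 0.505). It passed under the other 8 alternatives, with adjusted p from 1.33e-04 to 0.505 over all 12. The cRNA was primed from poly(A) tails, so only polyadenylated H2ax RNA was read. In human cells H2AX is also made as a form without a poly(A) tail. In RNA of a whole organ, fewer cells of a type and less RNA per cell cannot be told apart.

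**Figure D2:**
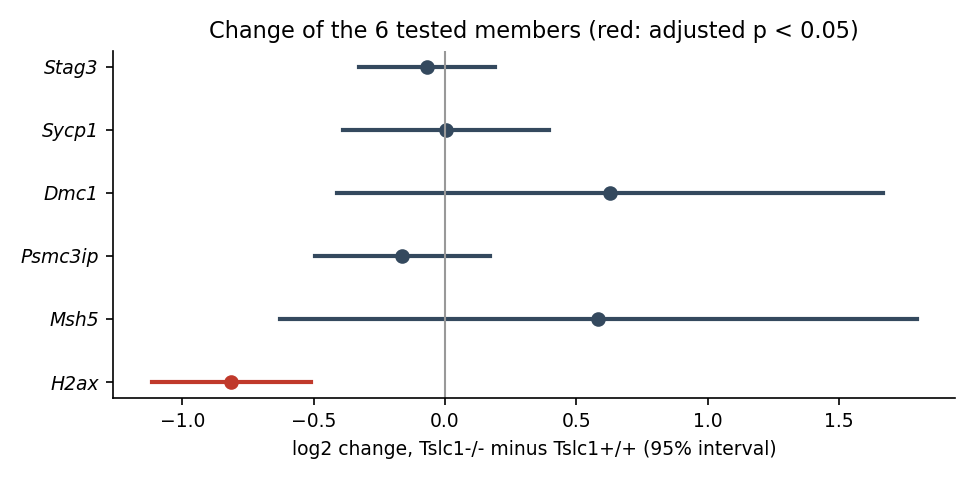
Log2 change, Tslc1-/- minus Tslc1+/+, of the 6 tested members (points) with 95% intervals from limma (lines), with H2ax in red as the 1 member past the threshold. The intervals of Stag3, Sycp1 and Psmc3ip include 0. Those of the dim Dmc1 (-0.41 to 1.67) and Msh5 (-0.63 to 1.80) are wider and include 0 as well.

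**Figure D3:**
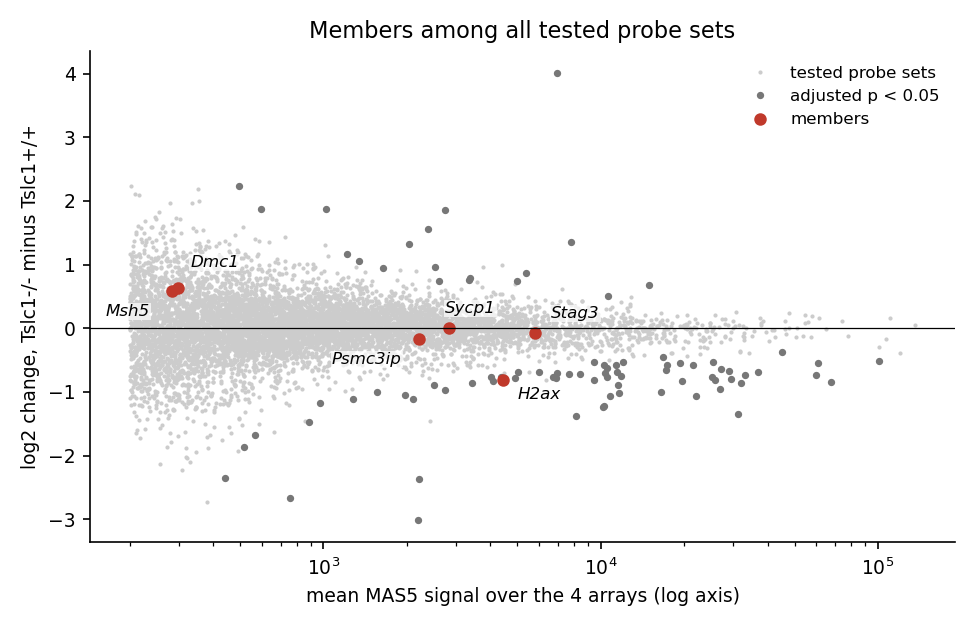
Log2 change, Tslc1-/- minus Tslc1+/+, against mean signal over the 4 arrays (log axis) for the 7975 tested probe sets (light grey), the 86 that passed (dark grey) and the 6 tested members (red). H2ax lies at -0.81 among the called probe sets, Stag3, Sycp1 and Psmc3ip lie in the narrow band near 0, and Dmc1 and Msh5 lie at the dim end, where the spread is wide.

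The rest of the pathway was described over 4 lists of 83 genes other than the members, of which 42 had a probe set and 34 were tested, each by its brightest one. None passed, and the median log2 change was 0.01 (limma). An unadjusted p under 0.05 was found for 3 of the 34, against 799 of all 7975 tested probe sets. Without the intensity trend limma also called 0 of the 34. Again 3 had an unadjusted p under 0.05, against 638 of 7975. The genotypes did not overlap on 15 of the 34, against 40% of all tested probe sets. Among 7 other cohesin genes the median was -0.18, with changes from -0.56 to 0.43. Pttg1, the securin that restrains separase, had the smallest p and a change of 0.33 (limma, adjusted p = 0.262). Smc3, a ring subunit that meiotic and mitotic cohesin share, read 747.7 and 662.1 in Tslc1-/- testis, against 1042 and 1080 in Tslc1+/+ testis. Its genotypes did not overlap, and its change of -0.56 did not pass (adjusted p = 0.407).

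The 13 tested genes of break repair and strand exchange had a median change of 0.02 and a range of -0.71 to 0.32. The smallest p was that of Rpa2, a subunit of the complex that coats single-stranded DNA, at -0.59 (limma, adjusted p = 0.491), while its partner Rpa1 was at 0.21 (adjusted p = 0.548). Brca2, which loads the recombinases onto DNA, read 2074 and 2361 in Tslc1-/- testis, against 2219 and 2326 in Tslc1+/+ testis, so the genotypes overlapped. Its change was -0.04 with a 95% interval of -0.37 to 0.30. Of the mismatch repair and crossover genes 3 were tested, with mean signals of 204.9 to 522.9, and Msh6 had the smallest p, at 0.87 (limma, adjusted p = 0.751). The 11 tested genes of the axis and of damage signalling had a median of -0.16. Topbp1, an activator of the ATR kinase that phosphorylates H2AX on unpaired chromosomes, had the smallest p and a change of 0.49 (limma, adjusted p = 0.517). Syce2, of the central element that joins the SYCP1 filaments, was at -0.24 with overlapping genotypes (adjusted p = 0.747).

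**Figure D4:**
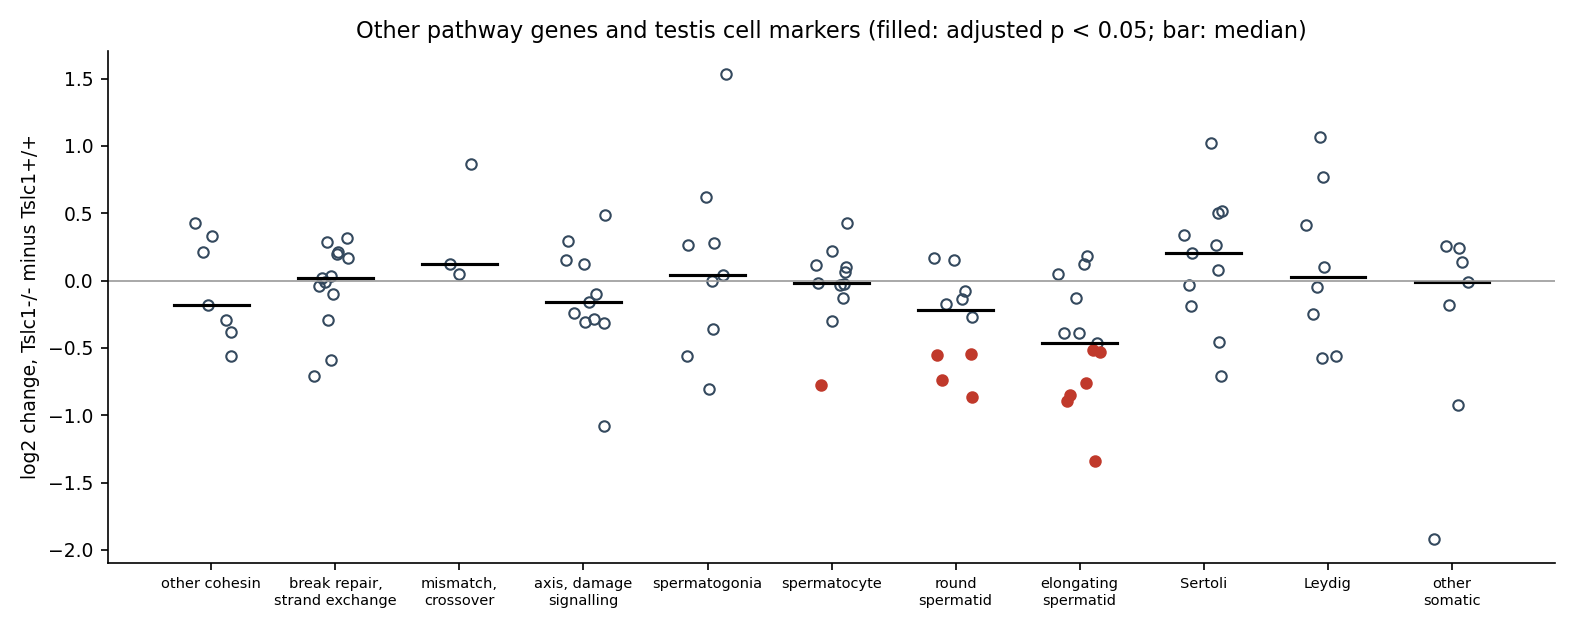
Log2 change, Tslc1-/- minus Tslc1+/+, of tested genes in the 4 lists of other pathway genes and in 7 lists of testis cell markers, 1 point per gene (filled where adjusted p is under 0.05) and a bar at the median. No pathway gene is filled, and the filled points are 1 spermatocyte, 4 round spermatid and 6 elongating spermatid genes, all below 0.

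Transcripts of the testis cell types were described over marker lists that hold no member, and these do not count cells. Of 11 spermatocyte transcripts 1 fell and 10 did not pass, with a median of -0.02. Their summed signal was 152880 and 145489 in Tslc1-/- testis, against 150310 and 157886 in Tslc1+/+ testis, so the genotypes overlapped. Ldhc, the germ cell lactate dehydrogenase and the brightest of them, was at -0.02, and the gene that fell was Pgk2, a germ cell glycolytic kinase, at -0.78 (limma, adjusted p = 0.00495). The 9 spermatogonial genes had a median of 0.04 and none passed, with 3 changes negative and 6 positive, from -0.81 to 1.53. Dazl was at -0.36 (limma, adjusted p = 0.244), with its other tested probe set at 0.25, and the bright Ddx4 was at 0.00.

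Some spermatid transcripts were lower in Tslc1-/- testis. Of 13 elongating spermatid genes 6 fell and 7 did not pass, with a median of -0.46 and a summed signal of 454070 and 426861 in Tslc1-/- testis, against 616512 and 623758 in Tslc1+/+ testis. Oaz3, the antizyme of haploid germ cells, was at -1.34 (limma, adjusted p = 2.31e-05), and Tnp2, the brightest, was at -0.39 and did not pass (adjusted p = 0.0654). Haspin, Actl7b and Prm2 of this list had positive changes (0.13, 0.05 and 0.18). Of 10 round spermatid genes 4 fell and 6 did not pass, with a median of -0.22 and a summed signal of 150590 and 151545 in Tslc1-/- testis, against 209930 and 218143 in Tslc1+/+ testis. Most of that sum was Gsg1 (45007 and 44413 in Tslc1-/-, against 71653 and 77606) and Tcp11 (48347 and 50100, against 71731 and 72700). Gsg1 was at -0.74 (limma, adjusted p = 5.16e-04) and the bright Tcp11 at -0.55 (adjusted p = 0.00231). The 6 round spermatid genes that did not pass ran from -0.27 to 0.17, with Acr and Tcte1 positive at 0.15 and 0.17. Crem, 1 of these 6, was at -0.08 on its brightest probe set and -1.12 on its other tested probe set. Over all marker lists 11 genes passed, against 0 without the intensity trend, 5 without Tslc1+/+ replicate 2 and 7 without Tslc1+/+ replicate 1 (limma). The part of spermatid RNA in the H2ax value was not tested. Of 11 Sertoli, 8 Leydig and 7 other somatic genes none passed (medians 0.21, 0.03 and -0.01). They include Rhox5 (0.51) and the bright Clu (-0.03) of Sertoli cells, Cyp17a1 (-0.58) and the bright Nr5a1 (-0.05) of Leydig cells, and Pecam1 (-1.92, limma, adjusted p = 0.0694) and Acta2 (0.14). Of the Leydig genes 4 were negative and 4 positive, from -0.58 to 1.07. Of the Sertoli genes 4 were negative and 7 positive, and of the other somatic ones 4 were negative and 3 positive.

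H2ax lies on chromosome 9, as Cadm1 does, while the other 6 members on the array lie on chromosomes 3, 5, 10, 11, 15 and 17. In RefSeq 52 protein-coding genes stand between H2ax and Cadm1, and 18 of the tested genes. This neighbourhood was examined after the H2ax value had been seen. Of the 49 other tested genes within 25 places of Cadm1, 2 passed, or 4.08%, against 1.06% of 284 on the rest of chromosome 9 and 1.19% of 5646 on other chromosomes. They were Arcn1, of the COPI vesicle coat, which was lower (-2.67, limma, adjusted p = 0.00495), and Ift46, of intraflagellar transport, which was higher (0.75, adjusted p = 0.0147). The median log2 change of the 49 genes was -0.21, against 0.02 on the rest of the chromosome and 0.02 elsewhere. Genotypes did not overlap on 44.9% of the 49, against 41.5% on the rest of the chromosome and 40.7% elsewhere. The nearest tested genes on both sides of H2ax, Dpagt1 and Slc37a4, were at -0.30 and -0.45 and did not pass (adjusted p = 0.827 and 0.664). Sequence beside a targeted gene is inherited along with it, and where the targeted cells came from another strain it can differ from C57BL/6J in the gene or under the probes. The strain of those cells is not given in the labels, and the part of this position in the H2ax value was not tested.

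**Figure D5:**
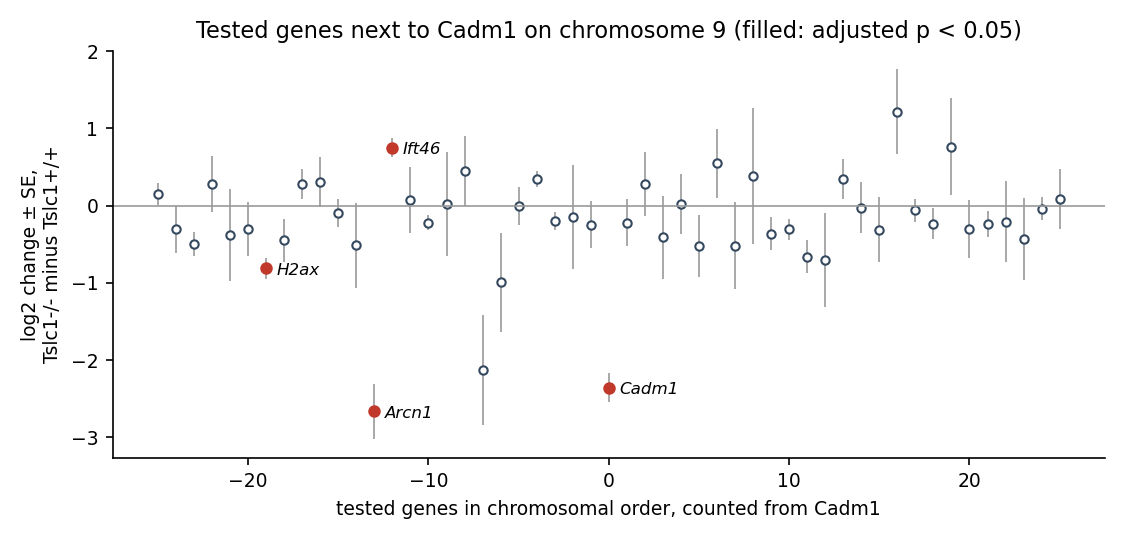
Log2 change ± SE, Tslc1-/- minus Tslc1+/+, of the tested genes within 25 places of Cadm1 on chromosome 9, in chromosomal order with Cadm1 at 0 (filled where adjusted p is under 0.05). H2ax, 19 places before Cadm1, Arcn1 and Cadm1 are filled and below 0, and Ift46 is filled and above 0.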

How the data were processed

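Testis RNA of mice was hybridised to 4 arrays, 2 for Tslc1-/- and 2 for Tslc1+/+. The deposited table gives the intensity of each probe set, not log-transformed. Per the labels' design text, the authors primed RNA from the poly(A) tail, computed MAS5 signals (a tool the submitters' processing notes list too), and scaled each array to a target of 1000. The mean after trimming was 1001 on each array, so differences in total RNA between testes are not visible. No detection calls were used. The array has 12488 probe sets, of which 66 controls were not fitted. Of the other 12422, 10833 had 1 gene, 396 several and 1193 none, and 10817 were matched by Entrez identifier to RefSeq symbols (assembly GRCm38.p6, used for names, gene order and upstream sequence; the authors' build is not given in the sources used here).

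Log2(signal + 50) over 7975 probe sets with a mean signal of at least 200 was fitted with limma 3.58.1 in R 4.3.3 (lmFit, eBayes with an intensity trend), with two-sided p adjusted over all of them by Benjamini-Hochberg and called under 0.05. The fit was also run on simulated data whose spread was set to follow signal, so that run cannot test the intensity trend. The number of arrays limits the precision. Replicate numbers are shared by the genotypes, but no label ties them to a shared animal or day. The members, lists and tests were chosen with earlier results of these data known. Beside the members and Cadm1, genes named are that with the smallest p in each list and, in marker lists, the brightest. The others were chosen after their values were seen. They are Smc3, Rpa1, Brca2, Syce2, Ybx2, Crem, Acr, Tcte1, Haspin, Actl7b, Prm2, the genes around Cadm1 and the histone genes of the closing section. Alternatives were other filters, pseudocounts and scalings, no trend, a replicate block, each array left out and, for all probe sets, those without a cross-hybridisation suffix.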

Additional observations from a re-analysis of the deposited data

How the results depend on the processing

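H2ax kept a negative change under all 12 alternatives (-0.97 to -0.66) and passed under 8. The other 5 tested members passed under none of their 58 alternative values (limma, lowest adjusted p = 0.545). Of these 58, 53 kept their direction. Sycp1 turned to -0.019 with quantile normalization and -0.00075 with equal array medians, and ran from -0.19 to 0.20 with 1 array left out. Stag3 ran from -0.17 to 0.030 with 1 array left out. Without the intensity trend limma called 0 of all probe sets (638 at an unadjusted p under 0.05), 0 members (2 at an unadjusted p under 0.05) and 0 marker genes (18), and the Cadm1 probe sets, still at -3.01 and -2.36, had adjusted p = 0.143 and 0.275. With 1 array left out, limma called 37 to 43 of all probe sets against 86, 0 to 1 members against 1, and 5 to 8 marker genes against 11 (5 without Tslc1+/+ replicate 2, 7 without Tslc1+/+ replicate 1). The cause was not tested, beyond there being fewer samples. With the replicate block 239 probe sets passed, H2ax stayed the 1 member called (adjusted p = 1.33e-04), and no pathway gene passed. Same-numbered arrays did not deviate together over all tested probe sets (r = -0.00119 across 7975 probe sets). One correlation over all of them cannot show a pairing limited to some, and no label ties the numbers to a shared animal or day. With no filter 58 probe sets passed. Dim signal limits Dmc1, Msh5 and Sycp3: the median half-width of the 95% interval was 1.15 for tested probe sets of mean signal under 500 and 0.31 between 2000 and 10000.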

Other observations

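H2ax was set beside other histone genes of the array, a group chosen after its value had been seen and given as a description. The group was picked by gene symbol from probe sets naming 1 gene and is not complete. Of 17 tested probe sets for 14 histone genes, 1 passed, that of H2ax, around which the group was formed. None of the other 16 passed, where 1.08% of all tested probe sets did, and their log2 changes ran from -0.95 to 1.03. H2bc22 had the smallest p after H2ax and a negative change on all of its 3 probe sets. They were at -0.95 (limma, adjusted p = 0.179), -0.30 (adjusted p = 0.283) and -0.20 (adjusted p = 0.941). On the first 2 the Tslc1-/- arrays were lower with no overlap, as on 18.5% of all tested probe sets. H2az1, a variant at gene starts, read 4153 and 5434 in Tslc1-/- testis, against 4001 and 4256 in Tslc1+/+ testis. The genotypes overlapped, at a change of 0.20 (limma, adjusted p = 0.708). Hils1, a linker histone of spermatids, read 12791 and 11377 in Tslc1-/- testis, against 12630 and 12437 in Tslc1+/+ testis. The genotypes overlapped, at a change of -0.05 (limma, adjusted p = 0.895). Macroh2a1, a variant of silent chromatin and of the sex chromosomes of spermatocytes, had changes of 0.51 and 0.31 on its 2 probe sets. Neither passed (limma, adjusted p = 0.258 and 0.814). On both the Tslc1-/- arrays were higher with no overlap, as on 21.5% of all tested probe sets. The difference between H2ax and these genes was not tested.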
